A study of Mus musculus with 6 samples.

Results

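The genes described here are Gcg, which encodes proglucagon, and Ttr, which encodes transthyretin, 2 of the 52542 gene rows counted in mouse islet wells. They were taken by symbol, and both were measured on all 6 plates. The 3 ppx plates hold islet cells taken 4 weeks after partial pancreatectomy, the surgical removal of part of the pancreas, and the 3 sham plates hold islet cells from sham-operated mice. All plates share the rest of the design, which is male Sox9-CreER; tdTomato mice given 8 mg of tamoxifen over 2 weeks from 10 weeks of age and operated on at 12 weeks of age. Tamoxifen switches the red reporter on in cells that carry the Sox9-driven recombinase, and in their progeny. Cells were sorted by FACS into 384-well plates. Replicate 1 of each group (ppx 1 and sham 1) was tomato-positive, sham 2 was a mixed plate, and ppx 2, ppx 3 and sham 3 were tomato-negative. The series counts 2300 cells from 6 pancreata, and the labels do not tie plates to mice, so p-values measure the spread between plates.

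Glucagon is the hormone of pancreatic alpha cells and raises blood glucose by acting on the liver. Proglucagon is cut to glucagon by the convertase Pcsk2 in alpha cells, while Pcsk1 releases glucagon-like peptides from the same precursor, chiefly in gut and brain. Transthyretin carries thyroid hormone and, with retinol-binding protein, vitamin A. Liver and choroid plexus are its best-known sources, and islet cells make it too.

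Gcg lies on chromosome 2 at 62474530 to 62483650, on the minus strand, with 6 exons (mm10, GENCODE vM21). The 250 bases upstream of the Gcg start site are shown because the wells below are sorted by the transcript that starts there (RefSeq, GRCm38.p6, chr2:62483654-62483903, minus strand, 5′ to 3′). The capitals mark the TATAAA motif, which begins 24 bases before the start.
Gcg promoter: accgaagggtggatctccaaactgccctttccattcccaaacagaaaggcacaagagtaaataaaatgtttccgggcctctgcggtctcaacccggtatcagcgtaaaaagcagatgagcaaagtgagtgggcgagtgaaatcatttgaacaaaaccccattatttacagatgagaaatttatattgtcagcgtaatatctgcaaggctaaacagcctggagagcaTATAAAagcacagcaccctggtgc
A search of both strands found TATAAA 2 times in this window, and 12.97% of 27025 promoters of the same length held it at least once. TAAT, the core read by many homeodomain factors, was found 2 times and is in 55.3% of promoters. CANNTG, the E-box, was found 3 times and is in 66.0% of promoters.

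Of 2304 wells, 2115 had at least 500 UMIs (unique molecular identifiers, each counting 1 captured transcript) and at most 20% of them from mitochondrial genes. The plates held 1262152, 1472441 and 1508513 UMIs for ppx 1 to 3, against 1250861, 1458576 and 1378257 for sham 1 to 3. No well name was shared between plates. Levels are given as percent of UMIs, and because the 3′ ends of transcripts were counted, a longer transcript does not give more UMIs.

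A well was called glucagon-high where Gcg was at least 2.3% of its UMIs, and 226 of the 2115 wells (10.7%) were. The other wells were sorted by hormone alone. The 387 Ppy-high wells had pancreatic polypeptide, the gamma cell hormone, at 2.3% or more. The 992 beta wells passed 3% for insulin only, the 240 delta wells passed 0.7% for somatostatin only, and 161 joined wells passed for insulin and somatostatin. The 109 hormone-low wells passed for none of them. Few wells lay near the Gcg threshold. The lowest inside it had 2.47%, 3.31% and 3.69%, the highest outside had 2.09%, 1.99% and 1.54%, and 18 wells lay between 1% and 2.3%.

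All 11 alpha cell markers on the list used were detected in glucagon-high wells. Their summed level there was 0.662% to 0.885% of UMIs per plate, against 0.374% to 0.479% in Ppy-high wells, 0.384% to 0.578% in delta wells and 0.117% to 0.143% in beta wells. Of the 11, 10 were detected in Ppy-high wells, 9 in beta wells and 6 in delta wells. These counts were not taken at equal depth, and the marker Fap was found in only 0.442% of glucagon-high wells. Gpx3, a glutathione peroxidase gene, and Tmem27 made up most of the sum in delta wells, at 0.195% and 0.190% of UMIs. They also made up most of it in glucagon-high wells (0.333% and 0.294%) and in Ppy-high wells (0.162% and 0.216%). Irx2, which encodes an alpha cell transcription factor, had 0 UMIs in delta wells, which allows up to 0.000778% of UMIs. Glucagon-high wells were not free of other hormones. Glucagon was the only hormone past its threshold in 125 of them, 40 also passed for somatostatin, 28 for Ppy, 19 for Ppy and somatostatin, 6 for insulin and 8 for insulin and somatostatin. Whether such wells held 1 cell or several was not tested.

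Gcg was the leading hormone transcript of glucagon-high wells. Its well median was 23.1% of UMIs, the quartiles were 16.8% and 28.5%, and single wells ran up to 42.6%. Per plate it was 20.5%, 23.5% and 28.0% for ppx 1 to 3, against 17.97%, 26.8% and 19.0% for sham 1 to 3. The plates of both operations overlap. Since Gcg chose these wells, its difference from other wells is a description only.

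Ttr was present in every glucagon-high well, at lower and more variable levels than Gcg. Ttr lies on chromosome 18 at 20665280 to 20674321, on the plus strand, with 4 exons (mm10, GENCODE vM21), and no other annotated gene overlaps it or Gcg. The well median was 1.72% of UMIs, with quartiles of 1.04% and 2.85% and a range of 0.181% to 6.98%. The upper quartile was 2.74 times the lower for Ttr, against 1.69 times for Gcg. Per plate Ttr was 1.27%, 2.26% and 1.72% for ppx 1 to 3, against 1.65%, 2.32% and 2.59% for sham 1 to 3. Within each operation the tomato-positive plate had the lowest Ttr.

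The other hormone classes held far less Ttr. Beta wells had 0.259%, 0.290% and 0.277% on ppx 1 to 3, against 0.185%, 0.235% and 0.225% on sham 1 to 3. Ppy-high wells had 0.0775%, 0.211% and 0.191% on ppx 1 to 3, against 0.105%, 0.120% and 0.214% on sham 1 to 3. Their spread between plates was wider than that of beta wells, with both tomato-positive plates low. The mixture of Ppy-high wells also differed by plate. Those with somatostatin but not insulin were 134 of 147 on ppx 1 and 108 of 118 on sham 1. On sham 2 they were 38 of 50. On ppx 2, ppx 3 and sham 3 they were 7 of 33, 6 of 22 and 5 of 17. The part of this mixture was not tested. Delta wells had the lowest levels, 0.0515% and 0.0315% on ppx 1 and ppx 3, against 0.0601%, 0.0776% and 0.0342% on sham 1 to 3. On ppx 2 only 2 delta wells were kept, and that plate is left out of the delta comparisons.

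Ttr was 8.63-fold higher in glucagon-high than in beta wells (log2 3.11 ± 0.19 SE, edgeR quasi-likelihood test with plate as a block, Benjamini-Hochberg adjusted p = 8.6e-15, higher on 6 of 6 plates). In this comparison 17% of 3468 genes tested were called higher in glucagon-high wells and 16.7% lower. Against delta wells the difference was 39.95-fold (log2 5.32 ± 0.31 SE, edgeR adjusted p = 2.7e-35, higher on 5 of 5 plates), where 8.05% of 1901 genes were called higher and 6.26% lower. Against Ppy-high wells it was 13.4-fold (log2 3.74 ± 0.20 SE, edgeR adjusted p = 4.9e-13, higher on 6 of 6 plates), where 10% of 1629 genes were called higher and 6.02% lower. These 3 calls held under every alternative run.

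**Figure D1:**
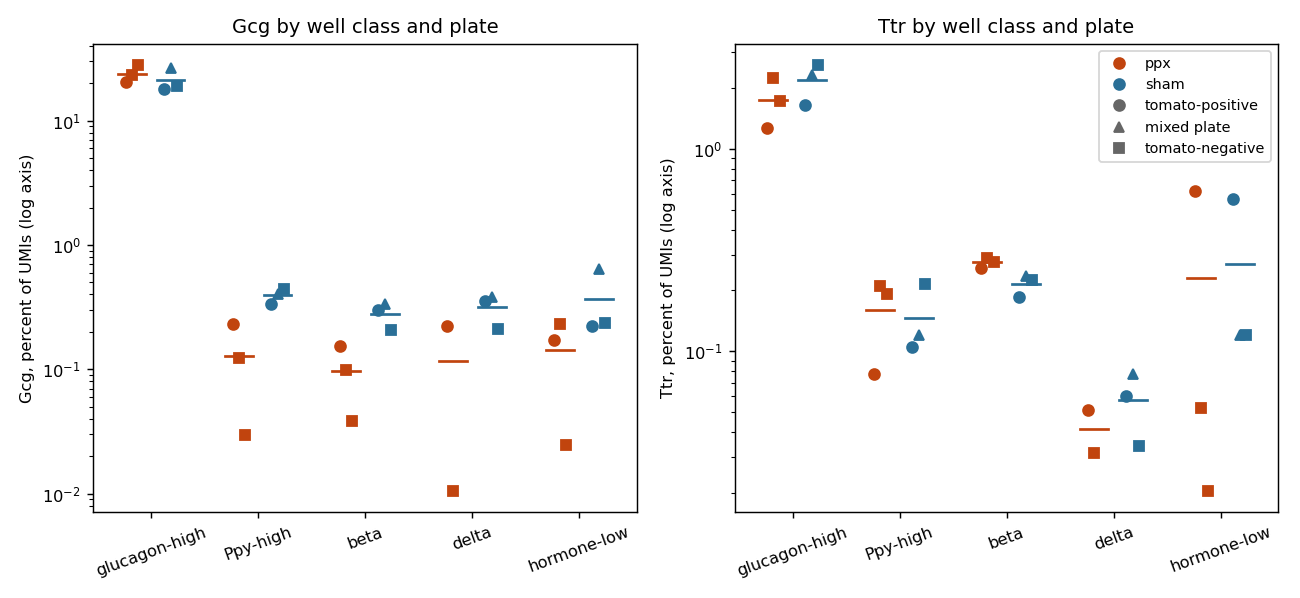
Gcg (left) and Ttr (right) in each well class, as percent of UMIs on log axes. Each point is 1 plate with at least 5 wells of the class, its shape gives the tomato status, and lines are means over the plates of an operation. Ttr runs from 1.27% to 2.59% in glucagon-high wells, and from 0.0315% to 0.0776% in delta wells.

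Among the 4 hormone classes, beta wells came second in Ttr. Their level exceeded that of Ppy-high wells on 6 of 6 plates and that of delta wells on 5 of 5. Ppy-high wells exceeded delta wells on 5 of 5. Most Ppy-high wells, 298 of 387, also passed for somatostatin but not for insulin. The 62 wells with Ppy only had 0.187%, 0.267% and 0.268% Ttr on ppx 1 to 3. On sham 1 to 3 they had 0.0773%, 0.192% and 0.284%, and only on sham 3 did they exceed the beta level (0.225%). Over plates alone, 10 pairs of classes were compared by exact sign-flip tests. The smallest two-sided p is 0.03125 with 6 plates and 0.0625 with 5, and 4 pairs reached 0.03125: glucagon-high over Ppy-high, over beta and over hormone-low wells, and beta over Ppy-high wells. After Benjamini-Hochberg adjustment over the 10 pairs these exact p-values were 0.0781, so 0 pairs passed 0.05. Given the smallest p-values above, none of the 10 pairs could have passed, so this count does not bear on the order of the classes. With hormone transcripts left out of the total, beta wells exceeded Ppy-high wells on 5 of 6 plates. Joined wells, which carry insulin and somatostatin, had 0.174%, 0.242% and 0.154% on ppx 1 to 3, against 0.158%, 0.193% and 0.184% on sham 1 to 3. On each plate that is below the beta level. The sham 3 value rests on 4 wells.

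Hormone-low wells split by plate. They had 0.620%, 0.0527% and 0.0204% Ttr on ppx 1 to 3, against 0.569%, 0.120% and 0.121% on sham 1 to 3. The high values on ppx 1 and sham 1 came with 3 wells in which ghrelin, the epsilon cell hormone, was at least 10% of UMIs, a limit chosen after the values were seen. These wells had 2.04% and 0.471% Ttr on ppx 1 and 1.53% on sham 1, with Gcg at 0.1002%, 0.0857% and 0.245%. Without them hormone-low wells had 0.104% Ttr on ppx 1 and 0.0736% on sham 1. Outside the glucagon-high class, 5 wells had 1% Ttr or more: 2 of these ghrelin wells, 2 beta wells and 1 Ppy-high well.

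**Figure D2:**
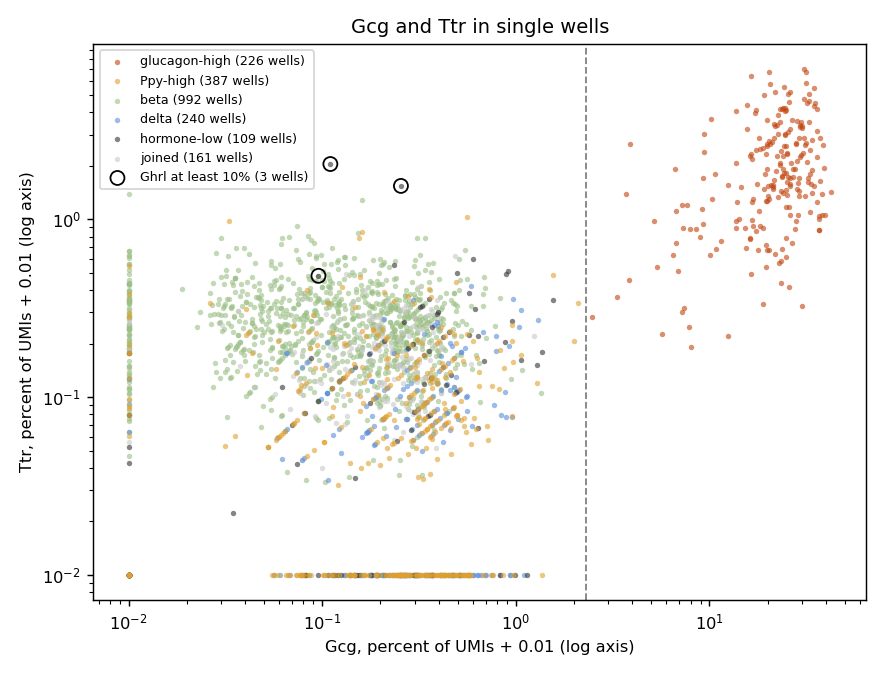
Ttr against Gcg in each of the 2115 kept wells, as percent of UMIs plus 0.01 on log axes, coloured by class. The dashed line is the Gcg threshold of 2.3% and open circles mark the 3 wells with ghrelin at 10% or more, which have Ttr of 0.471% to 2.04%.

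Within glucagon-high wells Ttr went with part of the hormone mixture. In the 40 wells that also passed for somatostatin alone its median was 2.16%, against 2.23% in the 125 wells with glucagon only. Wells that also carried Ppy at 2.3% or more had lower Ttr than wells that did not, on all 6 plates. The well medians with and without Ppy were 0.773% and 1.34% on ppx 1, 0.515% and 2.48% on ppx 2, and 1.05% and 1.60% on ppx 3. On the sham plates they were 0.832% and 1.87%, 1.92% and 2.11%, and 1.19% and 2.66%. The Gcg median was lower in the wells with Ppy on each plate as well. Median depth was higher with Ppy on ppx 2 and sham 1 and lower on the other plates, and its part in the difference was not tested. Across the wells of a plate, Spearman's rho of Ttr with Gcg was 0.24 to 0.73 and of Ttr with Ppy -0.22 to -0.76, over 10 to 64 wells. These percentages share their total, so the rho values are a description. Glucagon wells that also passed for insulin, 14 in all, had Ttr medians of 1.01% without somatostatin and 0.534% with it. Their median depths were 8451 and 10080 UMIs, against 3357 in wells with glucagon only. Their Gcg medians were 7.75% and 7.26%, against 25.8% in wells with glucagon only. The part of depth and of Gcg in their Ttr level was not tested.

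Ttr also divided Ppy-high wells. The 62 wells with Ppy as the only hormone past its threshold had 0.242% Ttr, against 0.0715% in the 298 wells with Ppy and somatostatin. It was higher in the wells with Ppy only on 5 of 6 plates. The exception was sham 1, at 0.0773% over 4 wells with Ppy only against 0.0870% over 108 wells with both.

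**Figure D3:**
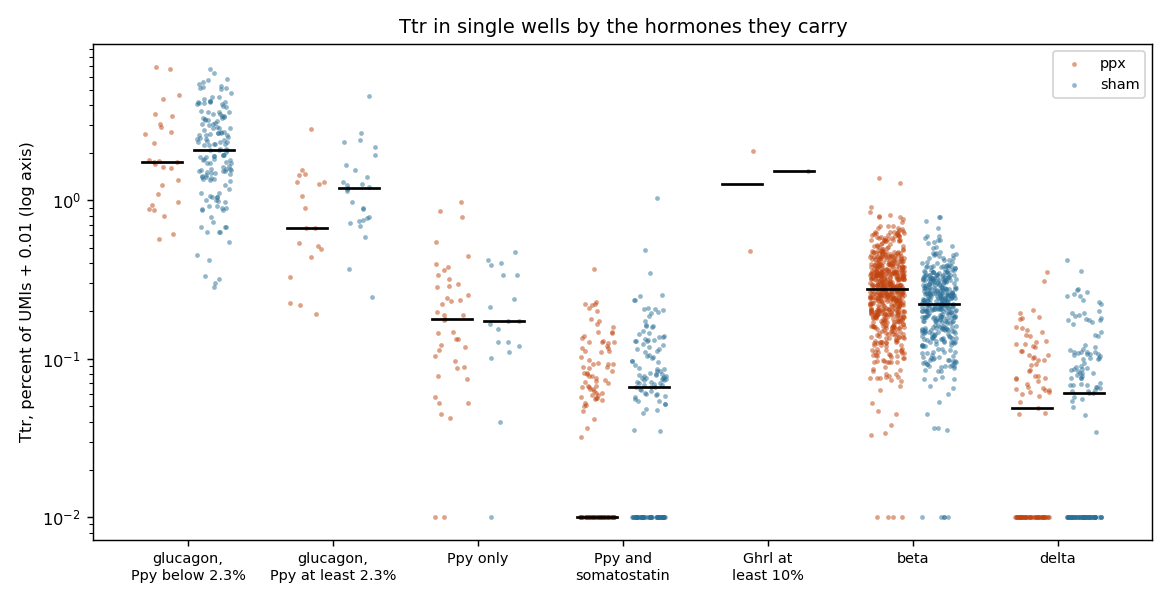
Ttr in single wells by the hormones past their thresholds, as percent of UMIs plus 0.01 on a log axis, with ppx wells left of sham wells. Points are wells and bars are medians. Wells with glucagon and Ppy have lower medians than those with glucagon and little Ppy in both operations.

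The same contrasts showed where glucagon-high wells differed in the machinery around both members. Of 9 tested regulators of the glucagon gene, 4 were higher than in beta wells and 0 were lower, beside 17% and 16.7% of all genes. The list median was 0.39 on the log2 scale, against -0.02 over all genes. Irx2 was 6.62 ± 0.38 higher on the log2 scale, at 0.0151% of UMIs in glucagon-high wells against 0.000124% in beta wells. Isl1, a LIM-homeodomain factor found in all islet endocrine cells, was 1.06 ± 0.16 higher on that scale, at 0.0221% in glucagon-high wells against 0.0108% in beta wells. Against Ppy-high wells 4 of 8 tested were higher and 1 was lower, beside 10% and 6.02% of all genes in those directions. On that scale Irx2 was higher by 4.65 and Neurod1, a factor of islet endocrine cells, by 0.80, and Pax6, another such factor, was lower (-0.56). Against delta wells 3 of 9 were higher, Irx2 among them, and 1 was lower (Pax6), beside 8.05% and 6.26% of all genes.

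Genes of glucagon processing and the secretory granule moved both ways. Against beta wells 5 of 11 were higher and 4 lower, beside 17% and 16.7% of all genes in those directions (list median log2 0.10). Pcsk2, the convertase that makes glucagon, was 0.90 ± 0.13 higher on the log2 scale, with 0.584% of UMIs in glucagon-high wells against 0.339% in beta wells. Scg5, the chaperone of Pcsk2, was higher by 0.75, and Pcsk1n, an inhibitor of Pcsk1, by 1.36. Pcsk1 itself was 2.86 ± 0.22 lower, with 0.00751% of UMIs in glucagon-high wells against 0.0618% in beta wells. The granins Scg2 (-1.73), Chga (-0.96) and Scg3 (-0.64) were lower on the log2 scale, while Pam, the amidating enzyme, and the calcium sensor Scgn were higher by 0.80 and 0.87. Against delta wells 7 of 11 were higher and 2 lower, beside 8.05% and 6.26% of all genes, and against Ppy-high wells 4 were higher and 3 lower, beside 10% and 6.02%.

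Of 15 genes for the proteins that handle retinol and thyroid hormone alongside transthyretin, 4 had enough counts to be tested against beta wells, and 3 were higher in glucagon-high wells, beside 17% of all genes. Rbp4, the retinol-binding protein that rides on transthyretin in blood, was at 0.101% in glucagon-high wells against 0.0118% in beta wells (log2 4.34 ± 0.31). Against delta wells, where it was at 0.475%, Rbp4 was 1.84 lower on the log2 scale, and against Ppy-high wells 0.95 lower. The order of Rbp4 across classes was thus not the order of Ttr. Rbp4 is also on the list of delta cell markers, and Sst, the somatostatin gene, was 4.36 higher on the log2 scale in glucagon-high than in beta wells, at 1.29% against 0.106% of UMIs. Rbp4 was at 0.196% in the 67 glucagon-high wells past the somatostatin threshold and at 0.0747% in the 125 wells with glucagon only, where somatostatin was at 0.0551%. The aromatic amino acid and thyroid hormone transporter Slc16a10 was 1.23 higher than in beta wells and 0.55 higher than in delta wells on the log2 scale. Against Ppy-high wells it did not pass, at 0.0422% in glucagon-high and 0.0458% in Ppy-high wells (log2 -0.03, edgeR adjusted p = 0.926). The thyroid hormone receptor gene Thra was 2.52 higher than in beta wells on that scale. Receptors for glucagon and its sister peptides were below the count filter in these contrasts.

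The genes whose profile was most like that of each member were found by Pearson correlation over 29 plate-by-class profiles, among 1200 genes with a mean of at least 100 CPM, on the log2(CPM + 10) scale and as a description. For Gcg they were Map3k15 (0.81), Ttr (0.79), Rps10 (0.75), Rpl8 (0.74) and Tmsb15b2 (0.72). For Ttr they were Lpl (0.81), Gcg (0.79), Wnt4 (0.78), Rnf130 (0.77) and Tmsb15b2 (0.75). The profiles of a plate share their library and the total each level is taken from.

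Partial pancreatectomy went with fewer glucagon-high wells. They were 17, 20 and 10 wells on ppx 1 to 3, or 4.78%, 5.52% and 2.86% of kept wells, against 51, 64 and 64 wells on sham 1 to 3, or 14.4%, 18.1% and 18.9%. The exact (Clopper-Pearson) 95% intervals of the single shares, which cover counting error only, ended at 8.40% or lower on ppx plates and began at 10.9% or higher on sham plates. The mean share was 4.39% ± 1.38 on ppx plates and 17.1% ± 2.42 on sham plates (SD, n = 3 each), a difference of -12.7 points. The exact permutation p was 0.1, the smallest that 3 against 3 plates allows. The difference was -9.59 points among tomato-positive plates and -14.7 points among tomato-negative plates. Among these wells the share that also passed for Ppy was 35.3%, 30% and 70% on ppx 1 to 3, against 23.5%, 7.81% and 17.2% on sham 1 to 3, a split looked at after the values were seen. On ppx 3 that is 7 of 10 wells.

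Inside glucagon-high wells neither member passed the test between operations. Gcg averaged 24.0% ± 3.76 on ppx plates and 21.2% ± 4.81 on sham plates (SD, n = 3 each; edgeR log2 0.28 ± 0.30 SE, adjusted p = 0.968). Ttr averaged 1.75% ± 0.49 on ppx plates and 2.19% ± 0.49 on sham plates (edgeR log2 -0.21 ± 0.27 SE, adjusted p = 0.975). No gene was called here, 0% of 2328 tested in edgeR and 0 in DESeq2, with 130 at an unadjusted p under 0.05. In glucagon-high wells below the Ppy threshold, Ttr was 1.44%, 3.21% and 2.84% on ppx 1 to 3, against 1.79%, 2.36% and 2.91% on sham 1 to 3. Wells with glucagon as the only hormone past its threshold numbered 3, 12 and 2 on ppx 1 to 3, against 15, 45 and 48 on sham 1 to 3, so ppx 2 alone has the minimum of 5 wells and stands for the operation. Against the 3 sham plates it gave 0.29 for Ttr and -0.02 for Gcg on the log2 scale, and neither passed.

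In beta wells the Gcg percent was lower on ppx plates and passed in edgeR but not in DESeq2, while the higher mean of Ttr did not pass. Gcg was 0.153%, 0.0981% and 0.0381% on ppx 1 to 3, against 0.301%, 0.333% and 0.206% on sham 1 to 3, and the plates of the operations do not overlap. It was lower by 1.68 on the log2 scale (SE 0.24, edgeR adjusted p = 1.8e-05), where 0.149% of 8050 genes were called lower and 0.298% higher. Plates that do not overlap in that direction were found for 5.25% of genes. In DESeq2 the change was -1.53 with an adjusted p of 0.253. The exact permutation p was 0.1, the smallest that 3 against 3 plates allows. Relative to the Gcg level of the whole plate, given below, the difference was -0.05. Whether beta cells made this Gcg was not tested. Ttr in beta wells was 0.275% ± 0.0157 on ppx plates and 0.215% ± 0.0263 on sham plates (SD, n = 3 each). The plates do not overlap, as holds in that direction for 7.54% of genes, but the difference of 0.31 ± 0.13 SE on the log2 scale did not pass (edgeR adjusted p = 0.458). Insulin took 30.5%, 15.7% and 14.7% of UMIs in beta wells on ppx 1 to 3, against 25.7%, 22.7% and 25.4% on sham 1 to 3. As percent of UMIs other than hormone transcripts, Ttr was 0.411%, 0.378% and 0.355% on ppx 1 to 3, against 0.273%, 0.334% and 0.328% on sham 1 to 3, and the plates again do not overlap. The test of the difference between the Ttr changes in glucagon-high and in beta wells did not pass (edgeR interaction -0.57 ± 0.34 SE on the log2 scale, adjusted p = 0.984; 0% of 3468 genes called, also 0 in DESeq2, with 171 at an unadjusted p under 0.05).

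The mean of Gcg was also lower on ppx plates in Ppy-high and in delta wells, without passing. In Ppy-high wells it was 0.233%, 0.123% and 0.0298% on ppx 1 to 3, against 0.334%, 0.406% and 0.443% on sham 1 to 3 (edgeR log2 -1.55 ± 0.44 SE, adjusted p = 0.938; 0% of 1682 genes called, also 0 in DESeq2, with 58 at an unadjusted p under 0.05). These plates do not overlap, as holds in that direction for 6.42% of 1682 genes. Without ppx 1 the difference passed, at -2.14 (edgeR adjusted p = 0.00681). In delta wells it was 0.223% and 0.0105% on ppx 1 and ppx 3, against 0.358%, 0.381% and 0.213% on sham 1 to 3 (edgeR log2 -1.02 ± 0.34 SE, adjusted p = 0.986; 0% of 489 genes called, also 0 in DESeq2, with 10 at an unadjusted p under 0.05). The delta plates of the operations overlap, as ppx 1 lies above sham 3. The ppx 3 value is 1 Gcg UMI in 5 wells, and without ppx 1 it alone stands for the operation, at -5.19. The test of the difference between the changes in beta and in delta wells did not pass (edgeR interaction 0.04 ± 0.36 SE on the log2 scale, adjusted p = 0.999; 0.0577% of 1733 genes called). Ttr in delta wells (-0.32) and in Ppy-high wells (0.28) did not pass on the log2 scale either, and in Ppy-high wells the sign turned with tomato status in the model (-0.17).

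Gcg in wells that were not glucagon-high was also set against the Gcg level of their whole plate. Over all UMIs of a plate, Gcg was 2.32%, 1.45% and 0.802% on ppx 1 to 3, against 4.68%, 5.62% and 3.31% on sham 1 to 3. Divided by that level, Gcg in beta wells was 6.60%, 6.79% and 4.76% of it on ppx 1 to 3, against 6.43%, 5.92% and 6.23% on sham 1 to 3. The means were 6.05% ± 1.12 on ppx plates and 6.19% ± 0.258 on sham plates (SD, n = 3 each, exact permutation p = 1). Relative to the plate, the difference of Gcg in beta wells between operations was -0.05 on the log2 scale, against -1.73 for the percent of UMIs taken the same way. Delta wells had 9.61% and 1.31% of the plate level on ppx 1 and ppx 3, against 7.64%, 6.77% and 6.42% on sham 1 to 3. Hormone-low wells, which include endothelial, stromal and immune cells, had 7.39%, 16.0% and 3.06% on ppx 1 to 3, against 4.74%, 11.4% and 7.13% on sham 1 to 3. As the plates also fall into separate groups of glucagon-high share by operation, the relation of this Gcg to that share cannot be told apart from the operation.

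Counts of Ttr per Gcg UMI were 0.0621, 0.0961 and 0.0616 in glucagon-high wells of ppx 1 to 3, against 0.0916, 0.0868 and 0.137 on sham 1 to 3. In beta wells they were 1.69, 2.95 and 7.27 on ppx 1 to 3, against 0.614, 0.705 and 1.09 on sham 1 to 3. At the ratio of glucagon-high wells, the Gcg counted in beta wells would come with 0.847% to 3.68% of their Ttr on ppx plates and with 12.3% to 14.9% on sham plates. In delta wells it would come with 26.9% and 2.05% of their Ttr on ppx 1 and ppx 3, against 54.5%, 42.6% and 84.9% on sham 1 to 3. Ttr there rests on 74 and 3 UMIs on ppx 1 and ppx 3, against 98, 31 and 9 UMIs on sham 1 to 3. For Ppy-high wells the same figure was 18.7%, 5.57% and 0.960% on ppx 1 to 3, against 29.2%, 29.3% and 28.3% on sham 1 to 3. The figure covers only Ttr that would come with Gcg at the ratio of glucagon-high wells. Beta wells held 30.8% of the Ttr UMIs of kept wells and 2.78% of the Gcg UMIs. Ttr from beta wells in delta and Ppy-high wells is thus not covered, and its part was not tested.

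**Figure D4:**
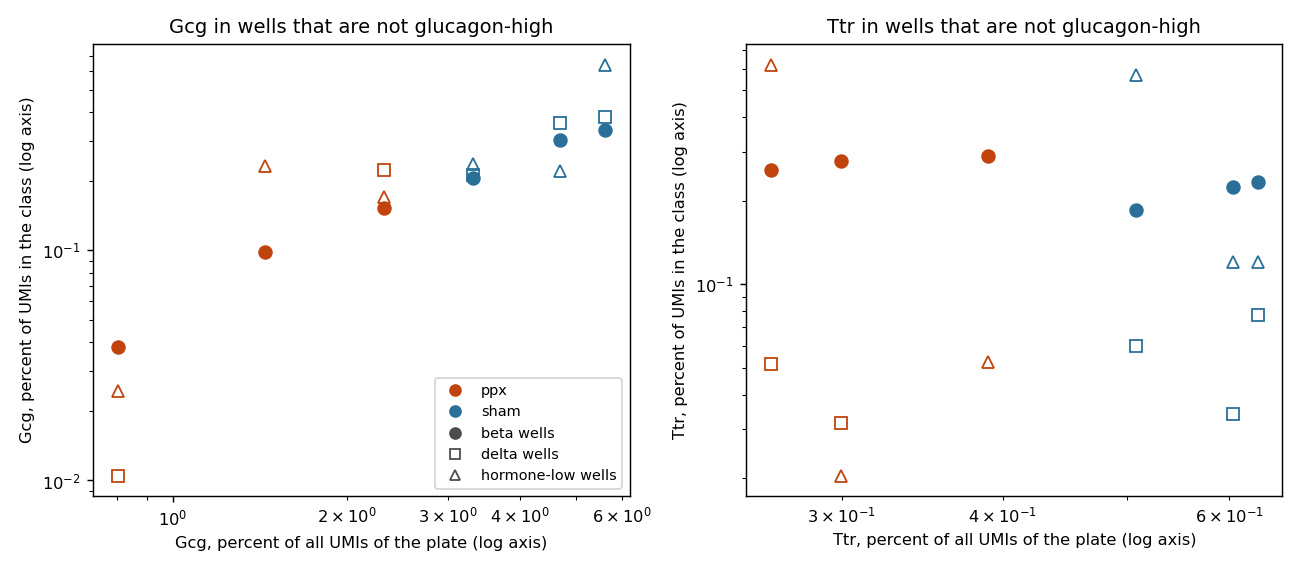
Gcg (left) and Ttr (right) in beta, delta and hormone-low wells against the level of the gene over all UMIs of the plate, both as percent on log axes, 1 point per plate and class with at least 5 wells. Gcg in beta wells lies at 4.76% to 6.79% of the plate level, while Ttr in beta wells lies within 0.185% to 0.290% on all plates.

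Shares of wells with a UMI were compared at equal depth. Wells with at least 1000 UMIs were thinned to 1000, which left out 2 glucagon-high, 31 Ppy-high, 12 beta, 28 delta and 58 hormone-low wells. A Ttr UMI was then found in 99.7% of glucagon-high, 88.7% of beta, 48.2% of Ppy-high and 42.1% of delta wells. Without thinning these shares were 100%, 99.1%, 64.6% and 54.2%, at median depths of 4229, 4238, 1828 and 1525 UMIs. Hormone-low wells, at a median of 968 UMIs, had one in 52.4% after thinning and in 57.8% without. A Gcg UMI was found in 65.3% of beta, 83.0% of Ppy-high, 88.9% of delta and 74.9% of hormone-low wells after thinning. Hormone-low wells were defined by their hormone levels alone. They include endothelial, stromal and immune cells, but the cell type of each well was not determined, and single wells had up to 1.54% Gcg. Without the ghrelin wells, 48 of them were deep enough to thin, 3 to 20 per plate, and 49.5% of these had a Ttr UMI and 75.03% a Gcg UMI. Plate by plate, the Gcg share of beta wells lay above theirs on 3 of 6 plates and below it on 3, and is not read as expression. The Ttr share of beta wells lay above that of hormone-low wells on 6 of 6 plates. The Ttr share of delta wells was 41.0% and 28.2% on ppx 1 and ppx 3, against 44.9%, 48.1% and 30.5% on sham 1 to 3. In hormone-low wells without ghrelin it was 56.1% and 26.1% on ppx 1 and ppx 3, against 44.0%, 67.0% and 53.7% on sham 1 to 3. Delta wells thus lay above on 2 of 5 plates and below on 3, and their Ttr is not told apart from that of hormone-low wells by this measure. The Ttr share of Ppy-high wells lay above that of these hormone-low wells on 4 of 6 plates and below it on 2. Where above, it was 68.5% on ppx 2, 68.7% on ppx 3, 44.2% on sham 1 and 81.9% on sham 3. Hormone-low wells of those plates had 18.1%, 26.1%, 44.0% and 53.7%, over 4, 6, 3 and 20 wells. Where below, the Ppy-high share was 35.1% on ppx 1 and 58.6% on sham 2. Hormone-low wells there had 56.1% and 67.0%, over 6 and 9 wells. By this measure the Ttr of Ppy-high wells is thus not clearly told apart from that of hormone-low wells.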

How the data were processed

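Cells from islets were sorted into 6 plates and sequenced by MARS-seq, a 3′-end method with UMIs. The authors deposited raw UMI counts per gene and well. HISAT 0.1.6 and mm10 are named per the submitters' processing notes. The tool that counted UMIs, like its annotation, is not given in the sources used here. Wells with at least 500 UMIs outside ERCC spike-ins and at most 20% mitochondrial UMIs were kept, and plates of a class needed at least 5 wells. Doublets were not called. Counts were summed per plate and class and tested with edgeR 4.0.16 (quasi-likelihood, TMM, filterByExpr, Benjamini-Hochberg over all genes tested), with DESeq2 1.42.0 as an alternative. Standard errors are the log2 change over the root of F. Single values were compared by exact two-sided tests over plates. Whether the plate numbers pair the plates was checked by correlating the deviations of same-numbered plates. The members, lists and thresholds were chosen with earlier results of these data known. Genes other than the members were named from the lists where they passed, up to 8 per list and comparison, and the 5 most alike to each member. The edgeR fits were first tested on simulated data. Some genes of the lists are counted but not reported here by name.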

Additional observations from a re-analysis of the deposited data

Results flagged for a closer look

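Wells left out of the analysis also held both transcripts. In the 96 wells with fewer than 500 UMIs, Gcg was 1.19% of UMIs and Ttr 0.258%, above the 0.0149% that a count of 0 would allow. Gcg reached 2.3% or more in 23 of those wells, 7 of them on ppx plates and 16 on sham plates. In the 93 wells with over 20% mitochondrial UMIs, Gcg was 0.139% and Ttr 0.152%, above a limit of 0.00142%, and Gcg reached 2.3% in 0 of them.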

How the results depend on the processing

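Of 216 repeats of 15 results under other settings, 204 kept their direction and their side of the threshold. These include 13 repeats of the Ttr class pairs and 11 of the share of glucagon-high wells. At the main settings their exact tests could not pass 0.05, so these repeats say little about the side of the threshold. The 3 contrasts of Ttr between glucagon-high and other wells kept both under every alternative run. Gcg in beta wells lost its call in DESeq2 (-1.53) and relative to the Gcg level of the whole plate (-0.052), a scale chosen after seeing the data. On that scale an exact permutation test was used, and 3 against 3 plates allow no p below 0.1. The call could therefore not be kept there, and only the size of the change can be read. The cause was not tested. In beta wells DESeq2 called 12 genes higher and 2 lower between operations, against 24 and 12 in edgeR. Between glucagon-high and Ppy-high wells it called 115 higher and 59 lower, against 163 and 98, and between glucagon-high and delta wells 88 and 68, against 153 and 119. Gcg in Ppy-high wells passed with no low-count filter (-1.46). The direction turned, with no call on either side, in glucagon-only wells for Gcg (-0.018) and Ttr (0.29) and for the Ttr difference between glucagon-high and beta wells (0.043), where ppx 2 is the only ppx plate with 5 such wells, with tomato status as a term for Ttr in Ppy-high wells (-0.17), with a Gcg threshold of 5% for the Gcg difference between beta and delta wells (-0.0057), and relative to the plate's Ttr for Ttr in delta wells (0.61). The causes were not tested. Leaving out single plates gave -2.11 to -1.20 for Gcg in beta, -5.19 to -0.49 in delta, -2.14 to -1.14 in Ppy-high and 0.15 to 0.51 in glucagon-high wells, and -0.17 to 2.19 for its beta minus delta difference. Without ppx 1, Gcg passed in delta and in Ppy-high wells. The lone ppx plate left in delta wells, like that in glucagon-only wells, is assumed to vary like the sham plates. Same-numbered plates did not deviate together (correlations 0.04, 0.05 and -0.02 over 1203 genes in beta wells), so the numbers are not taken to pair them. With a replicate block Gcg in beta wells was -1.82 and Ttr 0.31, and the block changed no call. The correlation of Gcg and Ttr in other wells with the glucagon-high share, and its alternatives, were not run, since the shares fall into separate clusters by operation. Depth limits Ttr in delta wells, which rests on 3 to 98 UMIs per plate, and Gcg there on ppx 3.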
